A study of Arabidopsis thaliana with 27 samples.

Results

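The genes described here are the Aux/IAA repressors and the TIR1/AFB auxin receptors of Arabidopsis thaliana roots. They were taken by gene ID, by a rule that uses no measured value: 29 Aux/IAA genes and the receptor genes TIR1 and AFB1 to AFB5, 35 of the 34262 genes in the table. All 35 were found, and 33 passed the filter for testing, a level of 10 normalized counts or more in 3 or more of the libraries. IAA6, at 0 to 7.64 normalized counts over all libraries, and IAA15, at 0 to 5.83, did not pass.

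RNA was sequenced from the roots of 10-day-old hydroponic seedlings, 20 per treatment, that had been exposed for 2 h to I3C (indole-3-carbinol, formed when cabbage-family plants break down their indole glucosinolates) or to its solvent DMSO. The line ICT1-2, homozygous for a transgene made in the laboratory, was taken in DMSO (2 libraries with values), at 200 µM and at 400 µM I3C (3 each). ICT1-8098, a homozygous line of the FOX overexpression library, was taken at 200 µM I3C and in DMSO (3 libraries each). Wild-type Col-0 was taken after wounding and in DMSO, at 200 µM and at 400 µM I3C (3 each). In the wounded plants each leaf was pinched 3 times with tweezers and the roots were taken 8 h later without DMSO, so wounding, the longer wait and the missing solvent cannot be told apart. Both ICT1 lines are labelled as overexpressing the ribosomal protein S30 from the promoter the labels call s35, and each is a single line, so that any effect of S30 cannot be told apart from other differences of that line. The S30 gene RPS30A (AT2G19750) averaged 5743 ± 821 normalized counts in ICT1-8098 against 2659 ± 728 in Col-0 in DMSO (SD, n = 3 each), a log2 fold change of 1.14 (SE 0.21, adjusted p = 0.000649). The libraries labelled ICT1-2 had 2429 ± 540.0 (SD, n = 2), a log2 fold change of -0.11 (SE 0.24, adjusted p = 0.796, 95% interval -0.61 to 0.38), and none of the 3 S30 genes passed the test as higher there. ICT1-2 below therefore means the libraries labelled as that line, whose S30 level went against the label.

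Auxin works by removing repressors. Aux/IAA proteins hold down auxin response factors (ARFs) on the promoters of auxin-responsive genes, together with co-repressors of the TOPLESS family. TIR1 and the AFBs are F-box proteins of SCF ubiquitin ligases, and auxin sits between such a receptor and a short degron in the Aux/IAA protein, which is then ubiquitinated and destroyed. Many Aux/IAA genes are themselves switched on by auxin, a feedback that restores the repressors. In roots the pathway sets cell elongation, gravitropism, meristem size and the start of lateral roots. I3C has been described as an antagonist of auxin at TIR1.

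The degron core carries the comparison among repressors, so its coding stretch is shown for the 5 Aux/IAA genes lowered in Col-0 at 200 µM I3C and for 4 of the 7 raised, which hold both forms of the core. The stretches were read 5′ to 3′ on the coding strand from the RefSeq TAIR10.1 genome, the same assembly coordinates as the TAIR10 build of the table. Each has 39 bases, and the capitals mark the 15 bases of the 5-residue core. The first 4 genes were called higher in Col-0 at that dose and the other 5 lower.
IAA10 (chr1:1060325-1060363, plus strand): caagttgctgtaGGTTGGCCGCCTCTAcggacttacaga
IAA13 (chr2:14115227-14115265, minus strand): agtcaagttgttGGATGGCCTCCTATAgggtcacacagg
IAA16 (chr3:1289724-1289762, minus strand): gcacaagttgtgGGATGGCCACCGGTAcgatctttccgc
IAA19 (chr3:5264304-5264342, plus strand): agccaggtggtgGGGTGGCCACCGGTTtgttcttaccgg
IAA14 (chr4:8349472-8349510, minus strand): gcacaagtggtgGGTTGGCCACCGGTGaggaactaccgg
IAA17 (chr1:1136935-1136973, plus strand): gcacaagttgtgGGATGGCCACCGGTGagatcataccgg
IAA26 (chr3:5613656-5613694, minus strand): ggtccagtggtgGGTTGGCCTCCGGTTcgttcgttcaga
IAA27 (chr4:14324648-14324686, minus strand): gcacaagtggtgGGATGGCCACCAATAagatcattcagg
IAA28 (chr5:9033809-9033847, plus strand): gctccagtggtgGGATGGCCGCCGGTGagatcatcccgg
The full core was coded in 17 of the 29 Aux/IAA genes. A further 6 (IAA8, IAA10, IAA11, IAA12, IAA13 and IAA27) differed at the last residue of the core, and 6 (IAA20 and IAA30 to IAA34) at more than 1 residue. The last residue was leucine in IAA10 and isoleucine in the others of the first set, in place of valine. In Arabidopsis, the lack of a full core in IAA20, IAA30 and their relatives is known to go with long-lived proteins. Genes that rose and genes that fell were found with the full core (IAA16 and IAA19, IAA14 and IAA28) and with the changed last residue (IAA10 and IAA13, IAA27). Of the genes with the full core, 3 of 15 tested rose and 4 fell in Col-0 at 200 µM, and of the 6 with a changed last codon, 3 rose and 1 fell. No test was made of this split.

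Promoters were read as 250 bases before to 50 bases after the annotated start of each gene, and searched on both strands for TGTCTC and TGTCGG, letters that ARFs are known to bind. Of 27443 promoters in the annotation, 14.19% held TGTCTC, 5.12% held TGTCGG and 18.67% held either. Of the 29 Aux/IAA promoters, 12 held TGTCTC and 6 held TGTCGG, 16 with either (55.2%), and of the 6 receptor promoters 1 held TGTCTC (AFB5) and none TGTCGG. The 2 motifs share their first letters and cannot occupy the same position. The upstream 250 bases of IAA19 are shown because the gene rose in Col-0 and ICT1-8098 and its window holds more than 1 match, in capitals.
IAA19 (chr3:5263751-5264000, plus strand): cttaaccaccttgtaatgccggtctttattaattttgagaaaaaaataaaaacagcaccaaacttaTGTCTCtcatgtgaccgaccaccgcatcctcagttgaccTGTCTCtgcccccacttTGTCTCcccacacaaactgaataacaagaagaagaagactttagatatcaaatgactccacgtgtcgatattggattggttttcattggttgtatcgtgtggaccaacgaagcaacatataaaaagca
IAA19 held TGTCTC 184, 145 and 128 bases before its start. IAA8 and IAA30 held TGTCTC before their starts, and IAA28 held it 38 bases after its start. IAA13, IAA16 and IAA27 held TGTCGG. No match was found in the windows of IAA2, IAA10, IAA18, IAA14, IAA17, IAA26 or IAA7, which says only that these letters are not in those 300 bases. Among Aux/IAA genes with a motif, 5 of 14 tested rose and 2 fell in Col-0 at 200 µM, against 2 and 3 of 13 without one. Of all genes, 15% rose and 13.9% fell. The median log2 fold change was 0.33 with a motif and 0.19 without at 200 µM, and 0.16 and 0.20 at 400 µM. These gaps also rest on few genes, of which IAA13, IAA16 and IAA19 alone stayed called at 200 µM in the fit of 2 groups. Again no test was made.

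Library depth, as recovered from the table, ran from 9503924 to 19433428 reads with a median of 14169036, and 3 reads corresponded to between 0.154 and 0.316 CPM (reads divided by library depth). These floors cover counting error only. The tissue label was checked with 10 root markers, all of which had reads in every library. Their summed level, which abundant markers weigh most, was 290.0 to 540.0 CPM at 200 µM and 317 to 400.0 CPM at 400 µM in Col-0. It was 2232 to 3190.0 CPM in Col-0 in DMSO. Without I3C the sum was also below that of Col-0 in DMSO in wounded Col-0 (1554 to 1818 CPM) and in ICT1-2 in DMSO (1604 to 1910 CPM). In the 5 comparisons of I3C with DMSO (Col-0 at 200 and 400 µM, ICT1-2 at 200 and 400 µM, ICT1-8098), 3, 5, 4, 3 and 3 of the 10 passed the test as lower. None passed as higher. Of all genes, 13.9%, 17.4%, 6.76%, 13.7% and 7.97% were called lower in these comparisons. The median log2 fold changes of the 10 were -0.75, -0.77, -0.64, -0.90 and -0.31 in the same order. Summed markers of shoot photosynthesis were at 43.9 to 56.5 CPM in ICT1-2 at 200 µM against 213 to 232 CPM in ICT1-2 in DMSO, at 46.4 to 51.6 CPM in ICT1-8098 at 200 µM against 92.2 to 114 CPM in DMSO, and at 172 to 595 CPM in Col-0 at 200 µM against 151 to 371 CPM in DMSO. The part of either marker list in the results below was not tested. In whole roots, fewer cells of a type and less RNA per cell cannot be told apart, and the labels name no separate cultures for the libraries of a group, so the spread behind each p-value may be technical.

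In Col-0 in DMSO the repressors spanned a wide range of levels and the receptors lay in its upper and middle parts. Per kb of exon, IAA9 was highest at 3047 ± 168 normalized counts (SD, n = 3), followed by IAA28 at 1390.0 ± 189, IAA2 at 930.0 ± 171, IAA8 at 812 ± 51.4 and IAA16 at 741 ± 106. TIR1 ranked 7 of 35 at 604 ± 91.1, AFB2 had 422 ± 29.8, AFB5 had 322 ± 29.8, AFB1 had 248 ± 31.3, AFB3 had 82.1 ± 4.24 and AFB4 had 77.5 ± 8.04 normalized counts per kb. Neighbours in this order mostly overlapped: only IAA9, IAA28, AFB2, AFB1, IAA18 and IAA20 had all 3 libraries above every library of the next gene. At the low end stood IAA32 at 7.82 ± 2.19, IAA29 at 5.51 ± 1.50, IAA5 at 4.25 ± 1.17, IAA15 at 1.26 ± 2.18 and IAA6 at 0.342 ± 0.593. The genes that changed came from all parts of the order, with IAA28 and IAA2 near the top and IAA10 (65.7 ± 7.34) and IAA30 (49.5 ± 9.57) further down.

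**Figure D1:**
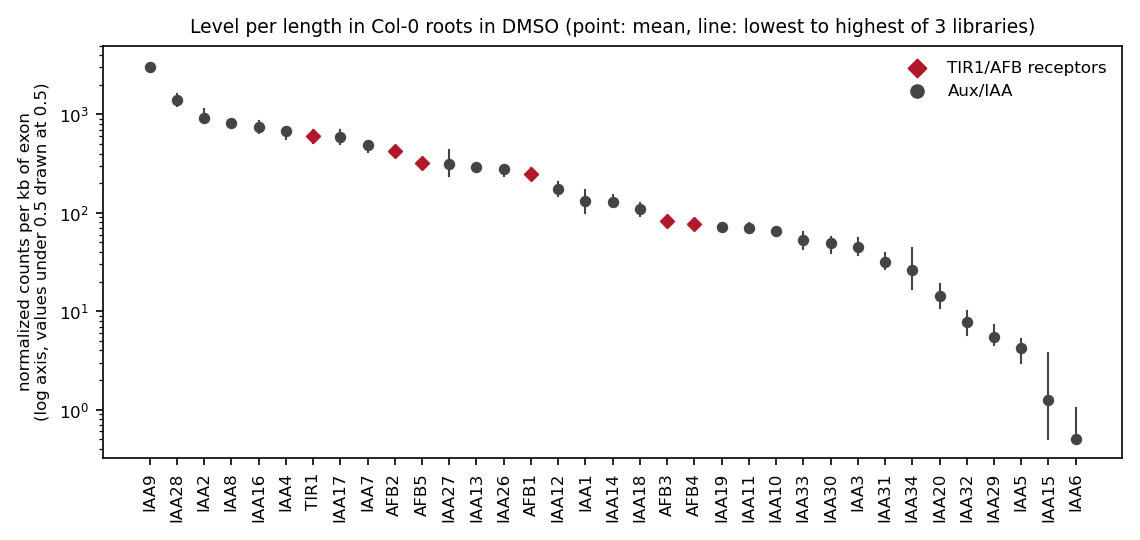
Normalized counts per kb of exon (log axis) of all 35 genes in Col-0 roots in DMSO, ordered by mean, with points at the mean and lines from the lowest to the highest of 3 libraries, receptors as diamonds. IAA9 stands alone at 3047 per kb, TIR1 ranks 7 at 604, and AFB3 and AFB4 sit near 80 (82.1 and 77.5).

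Calls with I3C went both ways within the family. In Col-0, 200 µM raised 7 Aux/IAA genes (IAA2, IAA8, IAA10, IAA13, IAA16, IAA19 and IAA30) and lowered 5 (IAA14, IAA17, IAA26, IAA27 and IAA28) together with the receptor gene AFB5, and 400 µM gave the same list except that IAA18 was also raised and IAA14 was not called. Called log2 fold changes in Col-0 ran from -1.41 for IAA14 at 200 µM to 1.77 for IAA30 at 400 µM, and 17 of the 33 tested genes passed in none of the 5 comparisons of I3C with DMSO. No gene of the family was called in both directions. IAA10, IAA13 and IAA16 rose in all 5. The lowered side at 200 µM rested on the spread shared over all 9 groups: in a fit of the 2 Col-0 groups alone, 4 of the 13 calls were left (IAA13, IAA16 and IAA19 higher, AFB5 lower) and no Aux/IAA gene was called lower, where 10.5% of all genes were higher and 6.65% lower. At 400 µM, 12 of the 13 calls stood in such a fit, all but that of IAA26.

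In the fit of all 9 groups, the share of members that rose was near or somewhat above that of all genes in the 5 I3C comparisons. The share that fell was above that of all genes only in Col-0 at 200 µM. With 33 members, 1 gene is 3.03%, so these gaps amount to few genes, and they were not tested. In a fit of the 2 Col-0 groups alone, 9.09% of members rose and 3.03% fell at 200 µM, both below the 10.5% and 6.65% of all genes. With scaling to total reads 6.06% of members rose in ICT1-2 at 200 µM, below the 8.62% of all genes. A gene was called at a limma p adjusted over all 21180 genes under 0.05. At 200 µM in Col-0, 7 of 33 rose and 6 fell (21.2% and 18.2%), where 15% of all genes rose and 13.9% fell. At 400 µM in Col-0, 8 rose and 5 fell (24.2% and 15.2%), against 18.4% and 17.4% of all genes. In ICT1-2, 4 rose and 1 fell at 200 µM (12.1% and 3.03%), against 11.8% and 6.76%, and 7 rose and 4 fell at 400 µM (21.2% and 12.1%), against 17.6% and 13.7%. In ICT1-8098 at 200 µM, 7 rose (21.2%) and none fell, against 14.2% and 7.97%. The members' median log2 fold change was 0.19 in Col-0 at 200 µM and 0.02 at 400 µM, 0.08 and 0.11 in ICT1-2 and -0.02 in ICT1-8098, beside all-gene medians of -0.03, -0.06, -0.03, -0.07 and -0.04. These 5 comparisons share their DMSO libraries within Col-0 and within ICT1-2.

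The split depends on how libraries are scaled. Scaled to total reads in place of the authors' size factors, the median of all genes moved to -0.33, -0.34, -0.27, -0.51 and -0.22 in the same 5 comparisons. In Col-0 the members then stood at 5 higher and 11 lower at 200 µM (15.2% and 33.3%), where 9.75% of all genes were higher and 32.0% lower, and at 5 and 9 at 400 µM (15.2% and 27.3%), against 12.5% and 34.1%. In ICT1-2 they stood at 2 and 4 (6.06% and 12.1%), against 8.62% and 16.9%, and at 4 and 7 (12.1% and 21.2%), against 10.1% and 40.3%, and in ICT1-8098 at 5 and 4 (15.2% and 12.1%), against 11.0% and 15.9%. The share of lowered members was near or below that of all genes under this scaling. Changes are therefore given relative to the bulk of genes, and calls that the total-read scaling ended are named with each gene.

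**Figure D2:**
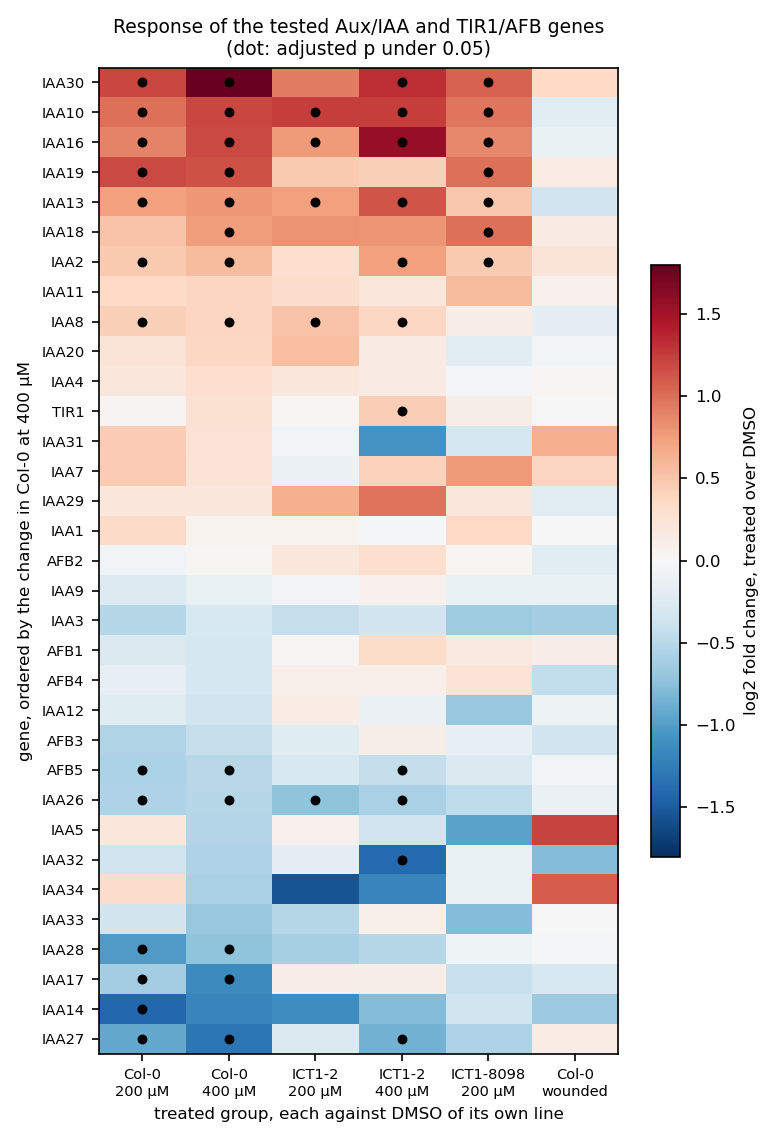
Log2 fold change over DMSO of the same line (colour) of the 33 tested genes (rows, ordered by the change in Col-0 at 400 µM) in the 5 I3C groups and in wounded Col-0 (columns), with dots at adjusted p under 0.05. IAA10, IAA13 and IAA16 have dots in all 5 I3C columns, and the wounded column has none.

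Among the repressors that rose, IAA10 (AT1G04100, chr1:1059470-1061209) is a little-studied member with a changed last core residue. In Col-0 roots, IAA10 had 96.6, 78.7 and 55.0 normalized counts after wounding, 75.8, 87.3 and 94.8 in DMSO, 230.3, 172 and 126 at 200 µM and 262, 177 and 166 at 400 µM I3C. ICT1-2 roots had 66.4 and 76.7 in DMSO, 190.4, 178 and 145 at 200 µM and 168, 165 and 179.7 at 400 µM. ICT1-8098 roots had 156, 186 and 114 at 200 µM, against 85.8, 64.5 and 78.9 in DMSO. In each line every I3C library was above every DMSO library, and the 2 doses overlapped. At 200 µM the log2 fold change of IAA10 over DMSO was 0.99 (SE 0.24, adjusted p = 0.00318) in Col-0, 1.24 (SE 0.27, adjusted p = 0.00185) in ICT1-2 and 0.97 (SE 0.24, adjusted p = 0.00461) in ICT1-8098. At 400 µM it was 1.20 (SE 0.24, adjusted p = 0.000431) in Col-0 and 1.25 (SE 0.27, adjusted p = 0.00106) in ICT1-2. The call stood without any one library in all 5 comparisons, and the one in Col-0 at 200 µM ended in a fit of the 2 compared groups alone.

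IAA13 (AT2G33310, chr2:14113025-14116089) is a close relative of BODENLOS (IAA12), which acts with MONOPTEROS (ARF5) in forming the embryonic root. In Col-0 roots, IAA13 had 548, 467 and 539 normalized counts after wounding, 649, 665 and 649.9 in DMSO, 1198, 1013 and 1069 at 200 µM and 1251, 1016 and 1133 at 400 µM I3C. ICT1-2 roots had 478 and 511 in DMSO, 1029.6, 689.7 and 780.0 at 200 µM and 1050.5, 1049 and 1158 at 400 µM. ICT1-8098 roots had 978, 846 and 920.1 at 200 µM, against 622, 659.5 and 674 in DMSO. Every I3C library was above every DMSO library of its line. On the log2 scale IAA13 at 200 µM stood at 0.74 (SE 0.12, adjusted p = 5.12e-05) over DMSO in Col-0, 0.73 (SE 0.14, adjusted p = 0.000349) in ICT1-2 and 0.49 (SE 0.12, adjusted p = 0.00446) in ICT1-8098. The values of IAA13 at 400 µM were 0.79 (SE 0.12, adjusted p = 1.83e-05) in Col-0 and 1.13 (SE 0.14, adjusted p = 6.71e-07) in ICT1-2. The IAA13 call in ICT1-8098 ended with scaling to total reads.

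IAA16 (AT3G04730, chr3:1288155-1290891) is a repressor whose stabilised form blunts auxin and abscisic acid responses. In Col-0 roots, IAA16 had 1787, 1292 and 1114 normalized counts after wounding, 1729, 1469.9 and 1301 in DMSO, 3288, 2911 and 2229.5 at 200 µM and 3862, 2902 and 3517 at 400 µM I3C. ICT1-2 roots had 1146 and 1549 in DMSO, 2313, 2009 and 2495 at 200 µM and 3707, 3863 and 4347 at 400 µM. ICT1-8098 roots had 2771, 2909.6 and 2635 at 200 µM, against 1372, 1469 and 1752 in DMSO. Again no I3C library overlapped with DMSO. IAA16 at 200 µM gave log2 fold changes over DMSO of 0.90 (SE 0.17, adjusted p = 0.000275) in Col-0, 0.76 (SE 0.19, adjusted p = 0.00585) in ICT1-2 and 0.86 (SE 0.17, adjusted p = 0.0005) in ICT1-8098. IAA16 at 400 µM gave 1.19 (SE 0.17, adjusted p = 6.75e-06) in Col-0 and 1.57 (SE 0.19, adjusted p = 8.26e-07) in ICT1-2. The IAA16 call in ICT1-2 at 200 µM ended with scaling to total reads, and without ICT1-2 DMSO replicate 1 (highest adjusted p 0.147).

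IAA30 (AT3G62100, chr3:22995686-22996809) lacks a full degron core. In Col-0 roots, IAA30 had 58.5, 46.4 and 91.4 normalized counts after wounding, 51.9, 38.6 and 57.1 in DMSO, 81.1, 162 and 110.0 at 200 µM and 118, 219 and 185 at 400 µM I3C. ICT1-2 roots had 70.7 and 42.7 in DMSO, 126, 131 and 70.5 at 200 µM and 169.8, 121 and 135 at 400 µM. ICT1-8098 roots had 119.8, 84.2 and 93.2 at 200 µM, against 48.3, 43.0 and 48.9 in DMSO. I3C libraries lay above DMSO except in ICT1-2 at 200 µM, where the lowest of them overlapped. In Col-0 the log2 fold change of IAA30 over DMSO was 1.20 (SE 0.31, adjusted p = 0.00484) at 200 µM and 1.77 (SE 0.31, adjusted p = 8.69e-05) at 400 µM. In ICT1-2 it was 0.92 (SE 0.35, adjusted p = 0.0694, 95% interval 0.20 to 1.64) and 1.34 (SE 0.35, adjusted p = 0.00502), and in ICT1-8098 at 200 µM 1.05 (SE 0.31, adjusted p = 0.0154). The Col-0 call at 200 µM ended in a fit of the 2 compared groups alone. Single libraries decided 2 other calls, which also ended with a block for the replicate number. The call in ICT1-2 at 400 µM ended without ICT1-2 DMSO replicate 2. The call in ICT1-8098 ended without ICT1-8098 200 µM replicate 2 or ICT1-8098 DMSO replicate 4 (highest adjusted p 0.0692).

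IAA19 (AT3G15540, chr3:5264001-5265695), known as MASSUGU2, takes part in tropic bending of the hypocotyl and is a much used auxin-induced gene. In Col-0 roots, IAA19 had 82.4, 84.5 and 70.9 normalized counts after wounding, 66.7, 74.2 and 75.5 in DMSO, 150.3, 245 and 122 at 200 µM and 134, 166 and 189 at 400 µM I3C. ICT1-2 roots had 79.3 and 73.8 in DMSO, 95.7, 116 and 109.7 at 200 µM and 116, 109.9 and 85.3 at 400 µM. ICT1-8098 roots had 114, 78.3 and 93.2 at 200 µM, against 58.3, 36.1 and 48.9 in DMSO. No I3C library overlapped with DMSO in any line, though the gap in ICT1-2 was small. At 200 µM the log2 fold change of IAA19 over DMSO was 1.19 (SE 0.24, adjusted p = 0.000452) in Col-0, 0.48 (SE 0.27, adjusted p = 0.234, 95% interval -0.07 to 1.03) in ICT1-2 and 0.99 (SE 0.24, adjusted p = 0.00313) in ICT1-8098. At 400 µM it was 1.15 (SE 0.24, adjusted p = 0.000505) in Col-0 and 0.42 (SE 0.27, adjusted p = 0.238, 95% interval -0.12 to 0.97) in ICT1-2. The calls in Col-0 and ICT1-8098 stood without any one library.

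IAA2 (AT3G23030, chr3:8180646-8182095), whose promoter serves as an auxin reporter in roots, was among the most abundant members. In Col-0 roots, IAA2 had 1655, 1400.1 and 1349.7 normalized counts after wounding, 1531, 1141 and 1115 in DMSO, 2029, 1593 and 1600.0 at 200 µM and 1985, 1754 and 1854 at 400 µM I3C. ICT1-2 roots had 1286 and 1348 in DMSO, 1677, 1525 and 1662 at 200 µM and 2195, 2218 and 2198 at 400 µM. ICT1-8098 roots had 1978, 1801 and 1432 at 200 µM, against 988, 1373 and 1414 in DMSO. Every I3C library was above every DMSO library of its line. On the log2 scale IAA2 at 200 µM stood at 0.47 (SE 0.15, adjusted p = 0.0177) over DMSO in Col-0, 0.30 (SE 0.16, adjusted p = 0.227, 95% interval -0.04 to 0.64) in ICT1-2 and 0.47 (SE 0.15, adjusted p = 0.0218) in ICT1-8098. The values of IAA2 at 400 µM were 0.58 (SE 0.15, adjusted p = 0.00349) in Col-0 and 0.74 (SE 0.16, adjusted p = 0.00121) in ICT1-2. All 4 calls ended with scaling to total reads. Those in Col-0 at 200 µM and in ICT1-8098 also ended in a fit of the 2 compared groups alone. The first of these ended without Col-0 200 µM replicate 1 or Col-0 DMSO replicate 4 or 5 (highest adjusted p 0.0912) too, and the one in ICT1-8098 without ICT1-8098 200 µM replicate 2 or 3 or ICT1-8098 DMSO replicate 1 (highest adjusted p 0.186).

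IAA8 (AT2G22670, chr2:9636346-9638761), a longer Aux/IAA protein, rose in Col-0 and ICT1-2 at both doses. In Col-0 roots, IAA8 had 1383, 1418 and 1652 normalized counts after wounding, 1557, 1693 and 1765 in DMSO, 2048, 2169 and 2585 at 200 µM and 2219, 2366 and 2001 at 400 µM I3C. ICT1-2 roots had 1481 and 1449 in DMSO, 2269.6, 2129 and 1891 at 200 µM and 1939, 1824 and 1927 at 400 µM. ICT1-8098 roots had 1979, 1928 and 2069 at 200 µM, against 1882, 1894 and 1713 in DMSO. I3C and DMSO libraries did not overlap in any line. IAA8 at 200 µM gave log2 fold changes over DMSO of 0.43 (SE 0.10, adjusted p = 0.00252) in Col-0, 0.51 (SE 0.12, adjusted p = 0.00248) in ICT1-2 and 0.12 (SE 0.10, adjusted p = 0.472, 95% interval -0.09 to 0.34) in ICT1-8098. IAA8 at 400 µM gave 0.39 (SE 0.10, adjusted p = 0.0049) in Col-0 and 0.37 (SE 0.12, adjusted p = 0.0171) in ICT1-2. All 4 calls ended with scaling to total reads, under which the change at 400 µM in ICT1-2 turned to -0.068. That call also ended without ICT1-2 DMSO replicate 1 or 2 (highest adjusted p 0.0974), and the Col-0 call at 200 µM in a fit of the 2 compared groups alone.

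IAA18 (AT1G51950, chr1:19305081-19307518), known as CRANE, acts in embryo and lateral root patterning. In Col-0 roots, IAA18 had 187, 206 and 247 normalized counts after wounding, 191, 164 and 225 in DMSO, 466, 249 and 178 at 200 µM and 321, 364 and 294 at 400 µM I3C. ICT1-2 roots had 162 and 277 in DMSO, 494, 312 and 336 at 200 µM and 314, 312 and 509 at 400 µM. ICT1-8098 roots had 499, 443 and 326 at 200 µM, against 203, 176 and 253 in DMSO. Libraries overlapped in Col-0 at 200 µM and were apart in the other 4 comparisons. In Col-0 the log2 fold change of IAA18 over DMSO was 0.52 (SE 0.28, adjusted p = 0.186, 95% interval -0.07 to 1.10) at 200 µM and 0.76 (SE 0.28, adjusted p = 0.04) at 400 µM. In ICT1-2 it was 0.81 (SE 0.32, adjusted p = 0.0786, 95% interval 0.16 to 1.47) and 0.80 (SE 0.32, adjusted p = 0.0597, 95% interval 0.14 to 1.45), and in ICT1-8098 at 200 µM 0.99 (SE 0.28, adjusted p = 0.0121). The Col-0 call at 400 µM ended with scaling to total reads, with no filter on low counts, and without Col-0 400 µM replicate 1, 4 or 5 or Col-0 DMSO replicate 3 or 4 (highest adjusted p 0.138), and that in ICT1-8098 without ICT1-8098 200 µM replicate 2 or ICT1-8098 DMSO replicate 4 (highest adjusted p 0.0633).

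**Figure D3:**
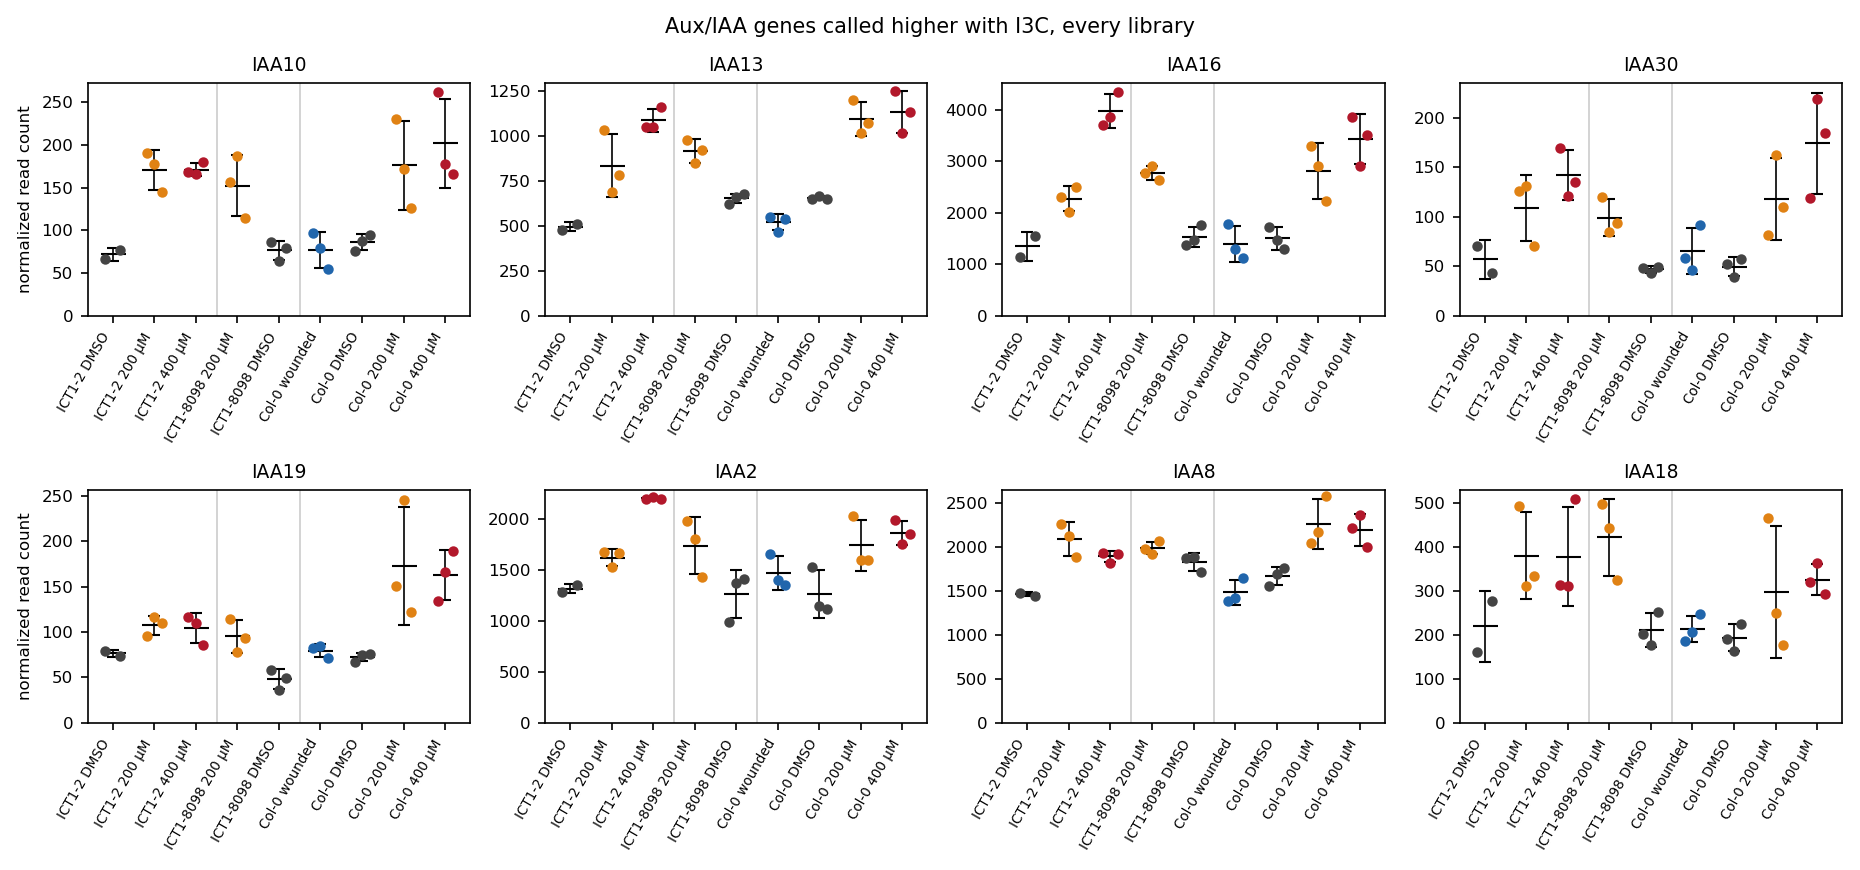
Normalized counts of the 8 Aux/IAA genes called higher with I3C, in all 9 groups, with 1 point per library and bars at the mean ± SD (n = 3, 2 for ICT1-2 in DMSO), each axis from 0. IAA10, IAA13 and IAA16 show I3C groups above DMSO in all 3 lines, and wounded Col-0 lies near Col-0 in DMSO.

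On the other side, IAA28 (AT5G25890, chr5:9033204-9035140) represses the start of lateral roots and was the second most abundant member per kb. In Col-0 roots, IAA28 had 1995, 1963 and 1681 normalized counts after wounding, 2220.5, 1706 and 1869.8 in DMSO, 1518, 769.7 and 729.9 at 200 µM and 1210.2, 1172 and 1106 at 400 µM I3C. ICT1-2 roots had 2159 and 2666 in DMSO, 1460.2, 1401 and 1955 at 200 µM and 1698, 1637 and 1706 at 400 µM. ICT1-8098 roots had 2397, 2031 and 1496 at 200 µM, against 2111, 1721 and 2354 in DMSO. I3C libraries were below DMSO in Col-0 and in ICT1-2, and overlapped in ICT1-8098. At 200 µM the log2 fold change of IAA28 over DMSO was -1.02 (SE 0.21, adjusted p = 0.000642) in Col-0, -0.60 (SE 0.23, adjusted p = 0.0831, 95% interval -1.08 to -0.11) in ICT1-2 and -0.08 (SE 0.21, adjusted p = 0.859, 95% interval -0.51 to 0.36) in ICT1-8098. At 400 µM it was -0.72 (SE 0.21, adjusted p = 0.00929) in Col-0 and -0.51 (SE 0.23, adjusted p = 0.102, 95% interval -1.0002 to -0.03) in ICT1-2. It was called lower in Col-0 at both doses, in no other line, and at 200 µM not in a fit of the 2 compared groups alone.

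IAA27 (AT4G29080, chr4:14323296-14325361), also called PAP2, has the changed last core residue. In Col-0 roots, IAA27 had 505, 466 and 464 normalized counts after wounding, 625, 342 and 388 in DMSO, 289.8, 212 and 198 at 200 µM and 189.9, 259 and 112 at 400 µM I3C. ICT1-2 roots had 452 and 587 in DMSO, 570.1, 401 and 348 at 200 µM and 207, 283 and 395 at 400 µM. ICT1-8098 roots had 536, 448 and 386 at 200 µM, against 642, 719 and 629.7 in DMSO. Groups were apart except in ICT1-2 at 200 µM. On the log2 scale IAA27 at 200 µM stood at -0.92 (SE 0.27, adjusted p = 0.0122) over DMSO in Col-0, -0.26 (SE 0.30, adjusted p = 0.613, 95% interval -0.88 to 0.37) in ICT1-2 and -0.55 (SE 0.27, adjusted p = 0.168, 95% interval -1.11 to 0.01) in ICT1-8098. The values of IAA27 at 400 µM were -1.30 (SE 0.27, adjusted p = 0.000559) in Col-0 and -0.85 (SE 0.30, adjusted p = 0.0353) in ICT1-2. The Col-0 call at 200 µM ended without Col-0 200 µM replicate 5 or Col-0 DMSO replicate 3 (highest adjusted p 0.0944), and that in ICT1-2 at 400 µM without ICT1-2 400 µM replicate 3 or 4 or ICT1-2 DMSO replicate 1 or 2 (highest adjusted p 0.243). Both also ended in a fit of the 2 compared groups alone.

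IAA17 (AT1G04250, chr1:1136078-1138663), or AXR3, is the repressor whose stabilised form abolishes root gravitropism. In Col-0 roots, IAA17 had 840.2, 655 and 451 normalized counts after wounding, 753, 909 and 653 in DMSO, 615, 445 and 447 at 200 µM and 362, 343 and 331 at 400 µM I3C. ICT1-2 roots had 525 and 683 in DMSO, 667, 561 and 728 at 200 µM and 552, 693 and 705 at 400 µM. ICT1-8098 roots had 599, 675 and 467 at 200 µM, against 728, 762 and 780.0 in DMSO. In Col-0 the libraries fell in separate steps from DMSO to 200 µM to 400 µM, in ICT1-2 they overlapped, and in ICT1-8098 they were apart. IAA17 at 200 µM gave log2 fold changes over DMSO of -0.62 (SE 0.19, adjusted p = 0.0159) in Col-0, 0.11 (SE 0.21, adjusted p = 0.766, 95% interval -0.33 to 0.56) in ICT1-2 and -0.40 (SE 0.19, adjusted p = 0.155, 95% interval -0.79 to 0.00) in ICT1-8098. IAA17 at 400 µM gave -1.15 (SE 0.19, adjusted p = 4.67e-05) in Col-0 and 0.11 (SE 0.21, adjusted p = 0.733, 95% interval -0.33 to 0.55) in ICT1-2. The Col-0 call at 200 µM ended in a fit of the 2 compared groups alone, and without Col-0 200 µM replicate 4 or 5 or Col-0 DMSO replicate 4 (highest adjusted p 0.0931).

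IAA26 (AT3G16500, chr3:5612203-5614803), or PAP1, is known as a target of a tobamovirus replicase. In Col-0 roots, IAA26 had 565, 456 and 587 normalized counts after wounding, 622, 488 and 643 in DMSO, 444, 367 and 378 at 200 µM and 351, 465 and 409 at 400 µM I3C. ICT1-2 roots had 642 and 856 in DMSO, 599, 421 and 360.4 at 200 µM and 396, 528 and 579.5 at 400 µM. ICT1-8098 roots had 595, 553 and 518 at 200 µM, against 648, 746 and 924 in DMSO. Every I3C library was below every DMSO library of its line. In Col-0 the log2 fold change of IAA26 over DMSO was -0.55 (SE 0.19, adjusted p = 0.0278) at 200 µM and -0.51 (SE 0.19, adjusted p = 0.0339) at 400 µM. In ICT1-2 it was -0.72 (SE 0.21, adjusted p = 0.0164) and -0.58 (SE 0.21, adjusted p = 0.0364), and in ICT1-8098 at 200 µM -0.46 (SE 0.19, adjusted p = 0.0817, 95% interval -0.85 to -0.08). Each of the 4 calls rested on single libraries and ended in a fit of the 2 compared groups alone. In Col-0 it ended at 200 µM without Col-0 200 µM replicate 4 or 5 or Col-0 DMSO replicate 3 or 5 (highest adjusted p 0.107) and at 400 µM without Col-0 400 µM replicate 1 or 5 or Col-0 DMSO replicate 3 or 5 (highest adjusted p 0.124). In ICT1-2 it ended at 200 µM without ICT1-2 200 µM replicate 4 or 5 or ICT1-2 DMSO replicate 2 (highest adjusted p 0.241) and at 400 µM without ICT1-2 400 µM replicate 3 or ICT1-2 DMSO replicate 2 (highest adjusted p 0.333).

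IAA14 (AT4G14550, chr4:8347822-8350263), or SOLITARY-ROOT, blocks lateral roots when stabilised. In Col-0 roots, IAA14 had 200.3, 167 and 109 normalized counts after wounding, 225, 284 and 225 in DMSO, 179, 118 and 35.04 at 200 µM and 163, 93.4 and 78.9 at 400 µM I3C. ICT1-2 roots had 179 and 260.2 in DMSO, 61.8, 98.5 and 160.2 at 200 µM and 148, 164 and 80.9 at 400 µM. ICT1-8098 roots had 328, 179.6 and 94.4 at 200 µM, against 186, 238 and 268 in DMSO. Col-0 and ICT1-2 libraries were lower with I3C without overlap, with a wide spread, and ICT1-8098 overlapped. At 200 µM the log2 fold change of IAA14 over DMSO was -1.41 (SE 0.48, adjusted p = 0.0298) in Col-0, -1.11 (SE 0.54, adjusted p = 0.165, 95% interval -2.23 to 0.00) in ICT1-2 and -0.36 (SE 0.48, adjusted p = 0.678, 95% interval -1.36 to 0.63) in ICT1-8098. At 400 µM it was -1.19 (SE 0.48, adjusted p = 0.0584, 95% interval -2.18 to -0.19) in Col-0 and -0.78 (SE 0.54, adjusted p = 0.29, 95% interval -1.89 to 0.34) in ICT1-2. The call ended in a fit of the 2 compared groups alone, and without Col-0 200 µM replicate 5 or Col-0 DMSO replicate 3, 4 or 5 (highest adjusted p 0.248). IAA14 lies near IAA1, IAA17 near IAA3, and IAA2 near IAA7 on their chromosomes, with no overlap of the annotated genes in these pairs. The library kit does not mark the strand, and the counting of reads that fit several genes is not given in the sources used, so values of overlapping or near-identical genes are uncertain.

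**Figure D4:**
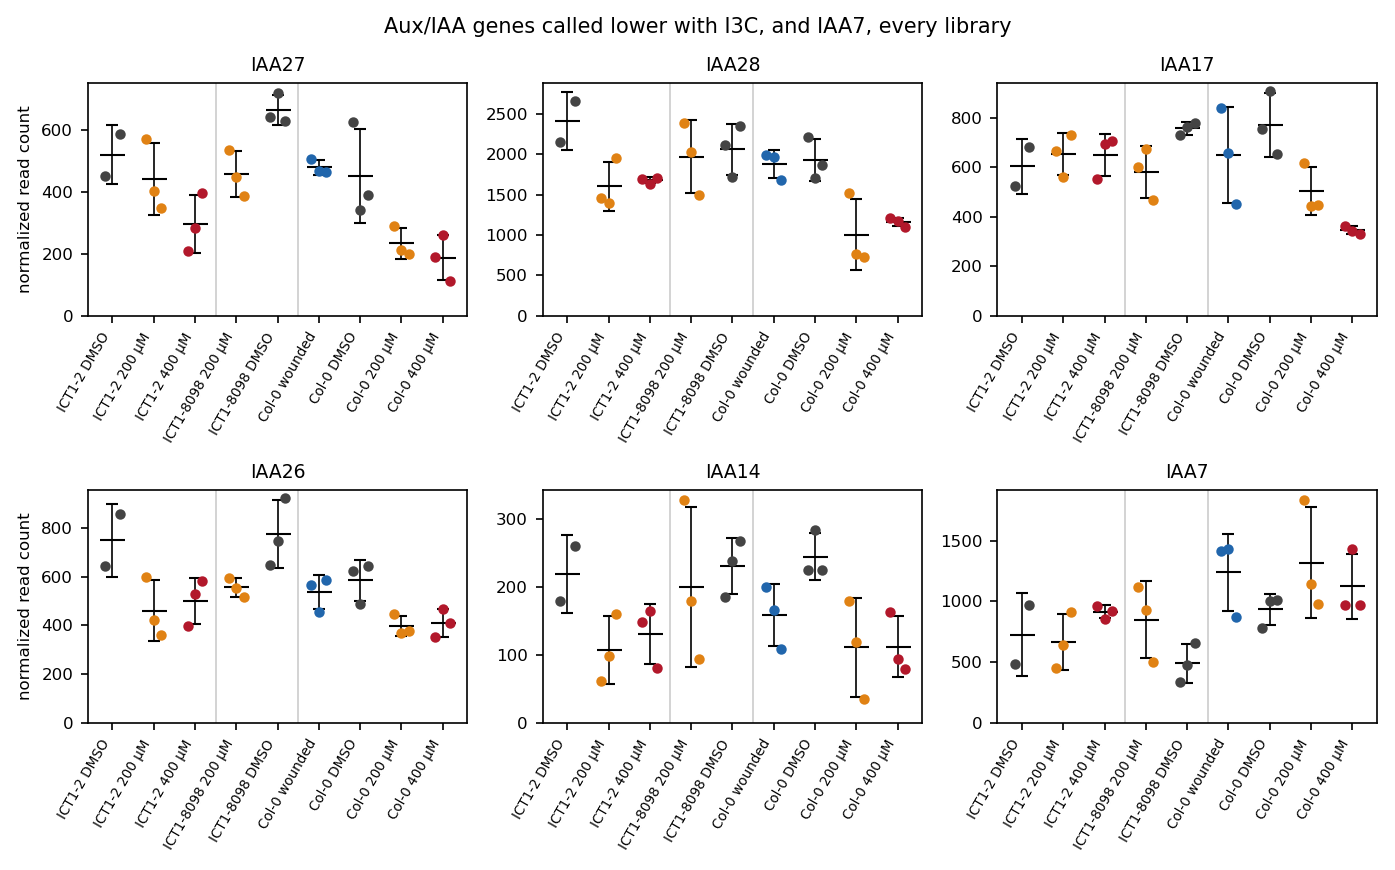
Normalized counts of the 5 Aux/IAA genes named as lower with I3C in Col-0 and of IAA7, in all 9 groups, with 1 point per library and bars at the mean ± SD (n = 3, 2 for ICT1-2 in DMSO), each axis from 0. IAA17 falls stepwise in Col-0 and overlaps between doses and DMSO in ICT1-2.

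No member passed the test between the 2 doses. At 400 µM against 200 µM in Col-0, limma called none of the 33 tested members and 0.123% of all genes, and none was called by voom on the recovered reads or in the authors' deposited table. At an unadjusted p under 0.05 there was 1 member, IAA17, with no overlap between the doses and a log2 fold change of -0.52 (SE 0.19, adjusted p = 0.283, 95% interval -0.92 to -0.13). For IAA30, the gene with the largest rise, the difference between doses was 0.57 (SE 0.31, adjusted p = 0.498, 95% interval -0.07 to 1.22). The intervals leave room for differences of about the size of the responses themselves in genes of low count.

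Of the 6 receptor genes, AFB5 was the 1 called in Col-0, lower at both doses. AFB5 (AT5G49980, chr5:20333897-20336671) is, with AFB4, the main receptor of picloram-type auxins. In Col-0 roots, AFB5 had 845, 751 and 749 normalized counts after wounding, 849, 865 and 727 in DMSO, 543, 508 and 595 at 200 µM and 603, 521 and 598 at 400 µM I3C. ICT1-2 roots had 645 and 560.3 in DMSO, 464, 532 and 499.7 at 200 µM and 513, 498 and 346 at 400 µM. ICT1-8098 roots had 607, 551 and 626 at 200 µM, against 771, 702 and 672 in DMSO. In all 3 lines every I3C library was below every DMSO library. On the log2 scale AFB5 at 200 µM stood at -0.57 (SE 0.13, adjusted p = 0.00174) over DMSO in Col-0, -0.27 (SE 0.15, adjusted p = 0.216, 95% interval -0.57 to 0.03) in ICT1-2 and -0.27 (SE 0.13, adjusted p = 0.166, 95% interval -0.53 to 0.00) in ICT1-8098. The values of AFB5 at 400 µM were -0.50 (SE 0.13, adjusted p = 0.00418) in Col-0 and -0.43 (SE 0.15, adjusted p = 0.0269) in ICT1-2. The Col-0 calls stood without any one library. That in ICT1-2 ended in a fit of the 2 compared groups alone, and without ICT1-2 400 µM replicate 5 or ICT1-2 DMSO replicate 1 (highest adjusted p 0.222).

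TIR1 (AT3G62980, chr3:23273065-23276630), the founding receptor, was the most abundant of the 6 per kb. In Col-0 roots, TIR1 had 1482, 1768 and 1529.7 normalized counts after wounding, 1851, 1579.6 and 1369 in DMSO, 1329, 1634 and 2059 at 200 µM and 1816, 1983 and 1995 at 400 µM I3C. ICT1-2 roots had 1355 and 1223 in DMSO, 1219, 1248 and 1504 at 200 µM and 1994, 1576 and 1718 at 400 µM. ICT1-8098 roots had 1443, 1292 and 1627 at 200 µM, against 1572, 1261 and 1211 in DMSO. Only in ICT1-2 at 400 µM were all I3C libraries above DMSO. TIR1 at 200 µM gave log2 fold changes over DMSO of 0.05 (SE 0.15, adjusted p = 0.829, 95% interval -0.26 to 0.36) in Col-0, 0.03 (SE 0.17, adjusted p = 0.924, 95% interval -0.31 to 0.38) in ICT1-2 and 0.11 (SE 0.15, adjusted p = 0.68, 95% interval -0.20 to 0.42) in ICT1-8098. TIR1 at 400 µM gave 0.28 (SE 0.15, adjusted p = 0.151, 95% interval -0.03 to 0.59) in Col-0 and 0.45 (SE 0.17, adjusted p = 0.0459) in ICT1-2. The call in ICT1-2 ended with scaling to total reads, with no filter on low counts, and without ICT1-2 400 µM replicate 3 or 5 or ICT1-2 DMSO replicate 1 or 2 (highest adjusted p 0.24).

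AFB2 (AT3G26810, chr3:9867652-9870782) and AFB3 (AT1G12820, chr1:4368760-4371298) are targets of the microRNA miR393, as is TIR1. In Col-0 roots, AFB2 had 1151, 948 and 910.4 normalized counts after wounding, 1060.4, 1188 and 1212 in DMSO, 1131, 1176 and 1025 at 200 µM and 1279, 1161 and 1066 at 400 µM I3C. ICT1-2 roots had 908 and 858 in DMSO, 1112, 994 and 931 at 200 µM and 1158, 1086 and 1030.2 at 400 µM. ICT1-8098 roots had 1055, 1109.7 and 1239 at 200 µM, against 1152, 1143 and 1025 in DMSO. AFB2 libraries overlapped between I3C and DMSO in Col-0 and ICT1-8098, and lay above DMSO in ICT1-2 without passing the test. In Col-0 the log2 fold change of AFB2 over DMSO was -0.05 (SE 0.11, adjusted p = 0.749, 95% interval -0.28 to 0.17) at 200 µM and 0.02 (SE 0.11, adjusted p = 0.919, 95% interval -0.21 to 0.24) at 400 µM. In ICT1-2 it was 0.19 (SE 0.12, adjusted p = 0.3, 95% interval -0.06 to 0.45) and 0.30 (SE 0.12, adjusted p = 0.0602, 95% interval 0.05 to 0.56), and in ICT1-8098 at 200 µM 0.03 (SE 0.11, adjusted p = 0.882, 95% interval -0.19 to 0.26).

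In Col-0 roots, AFB3 had 159.5, 133 and 141 normalized counts after wounding, 173, 192 and 185 in DMSO, 119, 109 and 151 at 200 µM and 161, 148 and 108 at 400 µM I3C. ICT1-2 roots had 161 and 122 in DMSO, 134, 109.6 and 121 at 200 µM and 119.7, 145 and 198 at 400 µM. ICT1-8098 roots had 172, 126 and 183 at 200 µM, against 207, 172 and 153 in DMSO. In Col-0 all I3C libraries of AFB3 were below all DMSO libraries, and in the other lines they overlapped. At 200 µM the log2 fold change of AFB3 over DMSO was -0.55 (SE 0.21, adjusted p = 0.0502, 95% interval -0.97 to -0.12) in Col-0, -0.21 (SE 0.23, adjusted p = 0.584, 95% interval -0.69 to 0.27) in ICT1-2 and -0.15 (SE 0.21, adjusted p = 0.686, 95% interval -0.58 to 0.28) in ICT1-8098. At 400 µM it was -0.42 (SE 0.21, adjusted p = 0.121, 95% interval -0.85 to 0.01) in Col-0 and 0.11 (SE 0.23, adjusted p = 0.766, 95% interval -0.37 to 0.58) in ICT1-2. The Col-0 value at 200 µM fell just short of the threshold.

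AFB1 (AT4G03190, chr4:1404887-1407402) is the receptor of the fast, non-transcriptional growth response of roots. In Col-0 roots, AFB1 had 642, 677 and 567 normalized counts after wounding, 657, 559 and 516 in DMSO, 459.5, 413 and 579 at 200 µM and 564, 403 and 429 at 400 µM I3C. ICT1-2 roots had 459 and 556 in DMSO, 494, 457 and 598 at 200 µM and 684, 529 and 711 at 400 µM. ICT1-8098 roots had 607, 518 and 670.0 at 200 µM, against 519, 524 and 537 in DMSO. Its libraries overlapped in all 5 comparisons. On the log2 scale AFB1 at 200 µM stood at -0.26 (SE 0.16, adjusted p = 0.233, 95% interval -0.59 to 0.07) over DMSO in Col-0, 0.02 (SE 0.18, adjusted p = 0.955, 95% interval -0.34 to 0.39) in ICT1-2 and 0.18 (SE 0.16, adjusted p = 0.502, 95% interval -0.15 to 0.50) in ICT1-8098. The values of AFB1 at 400 µM were -0.32 (SE 0.16, adjusted p = 0.121, 95% interval -0.65 to 0.01) in Col-0 and 0.33 (SE 0.18, adjusted p = 0.161, 95% interval -0.03 to 0.70) in ICT1-2.

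AFB4 (AT4G24390, chr4:12613076-12616238) was the lowest receptor per kb. In Col-0 roots, AFB4 had 146, 162 and 189 normalized counts after wounding, 253, 209 and 216 in DMSO, 191, 238 and 186 at 200 µM and 165, 187 and 189 at 400 µM I3C. ICT1-2 roots had 148 and 229 in DMSO, 188, 197 and 206 at 200 µM and 198, 217 and 175 at 400 µM. ICT1-8098 roots had 206, 215 and 193 at 200 µM, against 192, 161 and 166 in DMSO. I3C and DMSO libraries of AFB4 were apart in Col-0 at 400 µM, lower, and in ICT1-8098, higher. AFB4 at 200 µM gave log2 fold changes over DMSO of -0.14 (SE 0.16, adjusted p = 0.548, 95% interval -0.48 to 0.19) in Col-0, 0.10 (SE 0.18, adjusted p = 0.768, 95% interval -0.28 to 0.47) in ICT1-2 and 0.25 (SE 0.16, adjusted p = 0.326, 95% interval -0.09 to 0.58) in ICT1-8098. AFB4 at 400 µM gave -0.32 (SE 0.16, adjusted p = 0.127, 95% interval -0.66 to 0.01) in Col-0 and 0.09 (SE 0.18, adjusted p = 0.746, 95% interval -0.28 to 0.46) in ICT1-2. Over the 6 receptors, 1 fell in Col-0 at each dose (16.7%) and none rose, a share near the 13.9% and 17.4% of all genes that fell. With scaling to total reads 5 of 6 were lower at 200 µM and 4 of 6 at 400 µM in Col-0, where 32.0% and 34.1% of all genes were, and 1 of 6 in each of the other 3 comparisons.

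**Figure D5:**
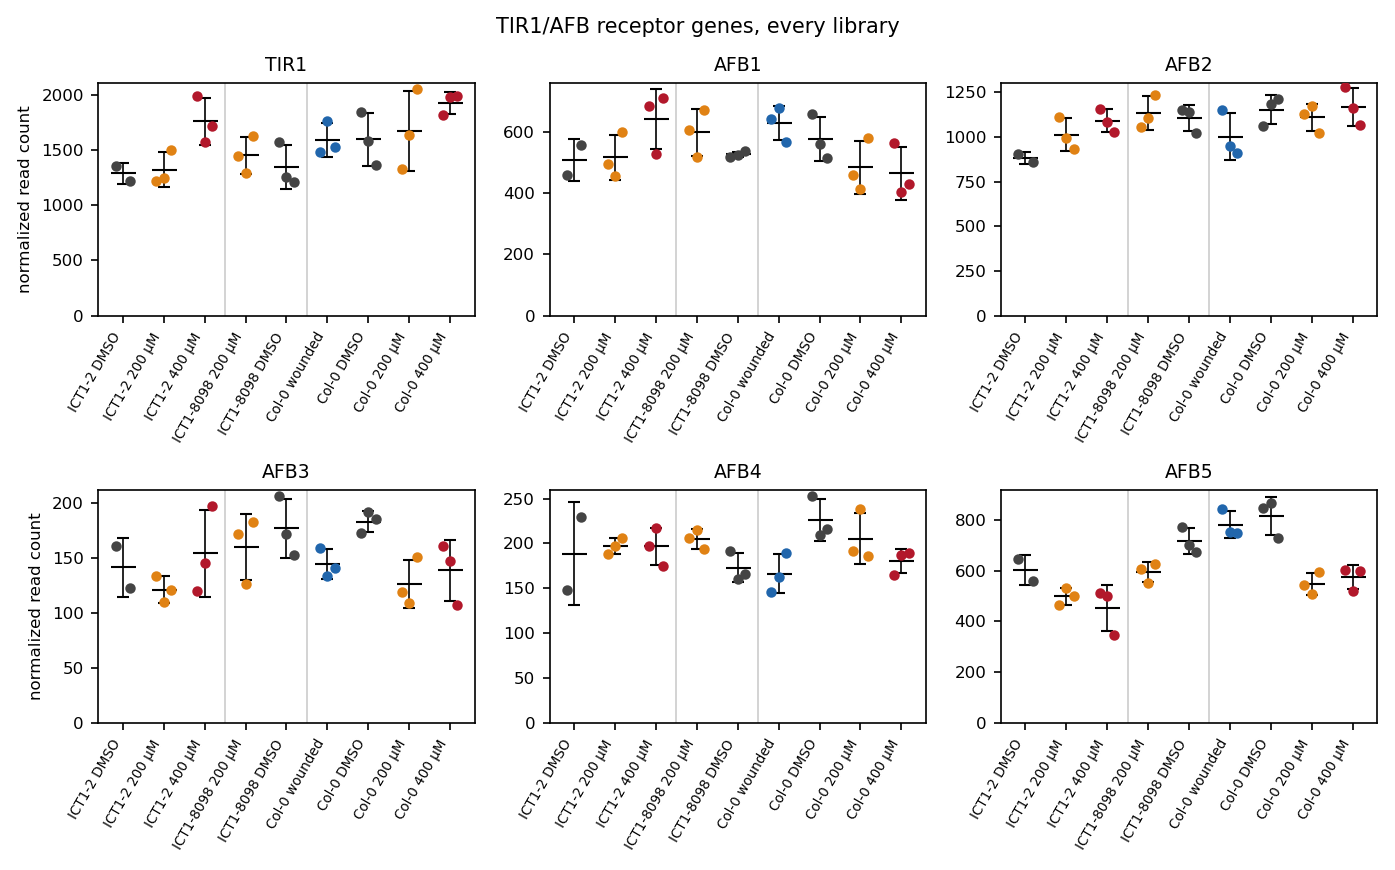
Normalized counts of TIR1 and AFB1 to AFB5 in all 9 groups, with 1 point per library and bars at the mean ± SD (n = 3, 2 for ICT1-2 in DMSO), each axis from 0. AFB5 libraries with I3C lie below DMSO in every line, and the other 5 receptors overlap in most comparisons.

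Without I3C the ICT1 lines differed from Col-0 in few members. In ICT1-2 in DMSO none was higher and 3 of 33 were lower than in Col-0 (0% and 9.09%), where 9.50% of all genes were higher and 8.66% lower. These were AFB5, with a log2 fold change of -0.43 (SE 0.15, adjusted p = 0.0413), AFB2, with -0.38 (SE 0.12, adjusted p = 0.03), and IAA13, with -0.41 (SE 0.14, adjusted p = 0.0402). Their libraries did not overlap with those of Col-0, but all 3 calls ended with scaling to total reads and in a fit of the 2 groups alone. Those of AFB2 and AFB5 also ended without either ICT1-2 DMSO library (highest adjusted p 0.191 and 0.301), AFB2 also without Col-0 DMSO replicate 4 or 5, AFB5 without Col-0 DMSO replicate 3 or 4, and IAA13 without any one of the 5 libraries (highest adjusted p 0.21).

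In ICT1-8098 in DMSO, 1 member was lower than in Col-0 and none was higher (3.03% and 0%), where 6.17% of all genes were lower and 6.01% higher. This was IAA7 (AT3G23050, chr3:8194606-8197161), or AXR2, a regulator of root and shoot growth. In Col-0 roots, IAA7 had 1412, 1435 and 873 normalized counts after wounding, 784, 1006 and 1010.0 in DMSO, 1838, 1146 and 974 at 200 µM and 966, 1435 and 972 at 400 µM I3C. ICT1-2 roots had 486 and 966 in DMSO, 449.5, 642 and 908 at 200 µM and 964, 857 and 922 at 400 µM. ICT1-8098 roots had 1115, 931 and 497 at 200 µM, against 336, 472 and 659.8 in DMSO. All ICT1-8098 DMSO libraries of IAA7 were below all Col-0 DMSO libraries, with a log2 fold change of -0.97 (SE 0.32, adjusted p = 0.0488). The call ended under 6 of 10 alternatives, scaling to total reads among them, and without ICT1-8098 DMSO replicate 1 or 4 or Col-0 DMSO replicate 4 or 5 (highest adjusted p 0.232). In Col-0 the log2 fold change of IAA7 over DMSO was 0.45 (SE 0.32, adjusted p = 0.314, 95% interval -0.21 to 1.12) at 200 µM and 0.25 (SE 0.32, adjusted p = 0.574, 95% interval -0.41 to 0.92) at 400 µM. In ICT1-2 it was -0.10 (SE 0.36, adjusted p = 0.889, 95% interval -0.84 to 0.64) and 0.41 (SE 0.36, adjusted p = 0.409, 95% interval -0.33 to 1.16), and in ICT1-8098 at 200 µM 0.77 (SE 0.32, adjusted p = 0.0966, 95% interval 0.10 to 1.43). IAA7 passed in none of these 5. Of the 14 shoot markers tested, 9 were called lower in ICT1-8098 than in Col-0 in DMSO, with a median log2 fold change of -2.13, and none was called in ICT1-2 in DMSO. Their part in the IAA7 value was not tested.

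At 200 µM I3C, IAA27 and IAA28, which fell in Col-0, were higher in the libraries labelled ICT1-2 and in ICT1-8098 than in Col-0. Of the 33 members, 2 members were higher and 2 lower in ICT1-2 than in Col-0 (6.06% each), where 11.4% of all genes were higher and 10.2% lower. IAA27 had 570.1, 401 and 348 normalized counts in ICT1-2 against 289.8, 212 and 198 in Col-0, a log2 fold change of 0.90 (SE 0.27, adjusted p = 0.0198), and that of IAA28 was 0.74 (SE 0.21, adjusted p = 0.0141). IAA7 was lower at -0.99 (SE 0.32, adjusted p = 0.0302), and IAA13 at -0.41 (SE 0.12, adjusted p = 0.0186), both ended by scaling to total reads. The calls of IAA7, IAA13 and IAA28 also ended in a fit of the 2 groups alone. Only IAA27 and IAA7 had no overlap between the lines. The IAA27 call ended without ICT1-2 200 µM replicate 2 or Col-0 200 µM replicate 4 or 5 (highest adjusted p 0.109), IAA28 without ICT1-2 200 µM replicate 5 or Col-0 200 µM replicate 4 or 5 (highest adjusted p 0.0936), IAA7 without ICT1-2 200 µM replicate 2 or 4 or Col-0 200 µM replicate 1 or 4 (highest adjusted p 0.154) and IAA13 without ICT1-2 200 µM replicate 4 or 5 or Col-0 200 µM replicate 1 (highest adjusted p 0.134). Shoot markers moved in this comparison too, with 13 of 14 called lower in ICT1-2, and their part in these values was not tested.

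ICT1-8098 at 200 µM had 2 members higher and 1 lower than Col-0 (6.06% and 3.03%), where 12.5% of all genes were higher and 11.8% lower. IAA27 had 536, 448 and 386 normalized counts in ICT1-8098 against 289.8, 212 and 198 in Col-0, a log2 fold change of 0.97 (SE 0.27, adjusted p = 0.0116). IAA28 had 2397, 2031 and 1496 against 1518, 769.7 and 729.9, with some overlap, and a log2 fold change of 1.03 (SE 0.21, adjusted p = 0.00109). IAA19 was lower, at 114, 78.3 and 93.2 against 150.3, 245 and 122, without overlap, a log2 fold change of -0.81 (SE 0.24, adjusted p = 0.0164). IAA27 and IAA19 were apart between these lines in DMSO too, in the same directions, though neither was called there. IAA27 then had 642, 719 and 629.7 in ICT1-8098 against 625, 342 and 388 in Col-0. IAA19 had 58.3, 36.1 and 48.9 against 66.7, 74.2 and 75.5, and IAA28 overlapped in DMSO. The IAA27 call ended without ICT1-8098 200 µM replicate 2 or Col-0 200 µM replicate 4 or 5 (highest adjusted p 0.0584). The IAA19 call ended without ICT1-8098 200 µM replicate 3 or Col-0 200 µM replicate 4 (highest adjusted p 0.142) or with scaling to total reads. That scaling gave 5 members higher and none lower (15.2% and 0%), below the 21.2% and 6.38% of all genes under it. The IAA19 and IAA28 calls ended in a fit of the 2 groups alone. Here too 13 of 14 shoot markers were called lower.

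At 400 µM, 2 members were higher and 3 lower in ICT1-2 than in Col-0 (6.06% and 9.09%), where 14.1% of all genes were higher and 11.9% lower. IAA17 had 552, 693 and 705 normalized counts in ICT1-2 against 362, 343 and 331 in Col-0, without overlap, a log2 fold change of 0.90 (SE 0.19, adjusted p = 0.00117), and this call held under every alternative and without any one library. AFB1 was higher at 0.47 (SE 0.16, adjusted p = 0.0319) with overlap, IAA19 lower at -0.64 (SE 0.24, adjusted p = 0.0489) and AFB5 lower at -0.36 (SE 0.13, adjusted p = 0.0432). IAA31 (AT3G17600), a relative of IAA20 and IAA30 without a full core, had 19.7, 20.0 and 5.99 normalized counts in ICT1-2 against 31.5, 46.0 and 25.8 in Col-0, a log2 fold change of -1.25 (SE 0.38, adjusted p = 0.0174). The call of AFB5 ended under 5 of 10 alternatives, voom and the authors' deposited calls among them, and that of IAA19 under 4, voom and no filter on low counts among them. AFB1 was lost under 3 of 10, among them scaling to total reads, and IAA31 under 2 of 9, a fit of the 2 groups alone and voom. A fit of the 2 groups alone ended all 4. The AFB1 call ended without ICT1-2 400 µM replicate 3 or 5 or Col-0 400 µM replicate 4 or 5 (highest adjusted p 0.14), IAA19 without ICT1-2 400 µM replicate 3, 4 or 5 or Col-0 400 µM replicate 4 or 5 (highest adjusted p 0.194), AFB5 without ICT1-2 400 µM replicate 5 or Col-0 400 µM replicate 1 or 5 (highest adjusted p 0.328) and IAA31 without ICT1-2 400 µM replicate 5 or Col-0 400 µM replicate 4 (highest adjusted p 0.156). Shoot markers were lower in 10 of 14.

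Whether the response to I3C differed between lines was tested as an interaction. At 400 µM, 1 member passed, higher in ICT1-2 (3.03%, and 0% lower), where 1.35% of all genes were higher and 0.873% lower. This was IAA17, which fell to 362, 343 and 331 normalized counts in Col-0, against 753, 909 and 653 in DMSO, and had 552, 693 and 705 in ICT1-2, against 525 and 683 in DMSO. The difference of the 2 log2 fold changes was 1.26 (SE 0.29, adjusted p = 0.02, 95% interval 0.66 to 1.85). It ended with scaling to total reads and without ICT1-2 400 µM replicate 5 or ICT1-2 DMSO replicate 1 or Col-0 DMSO replicate 4 (highest adjusted p 0.159). At 200 µM none passed for ICT1-2, where 0.680% of all genes did, nor for ICT1-8098, where 0.264% did, and voom also called none. At an unadjusted p under 0.05 were IAA17, with 0.74 (SE 0.29, adjusted p = 0.28, 95% interval 0.14 to 1.33), and IAA34, with -1.87 (SE 0.82, adjusted p = 0.351, 95% interval -3.57 to -0.17), for ICT1-2, and IAA8, with -0.31 (SE 0.15, adjusted p = 0.516, 95% interval -0.61 to -0.01), and IAA28, with 0.94 (SE 0.30, adjusted p = 0.247, 95% interval 0.32 to 1.56), for ICT1-8098. The higher IAA27 and IAA28 at 200 µM are differences between lines measured at that dose, and IAA27 in ICT1-8098 lay above Col-0 in DMSO too. The difference in response did not pass the test for either gene.

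Wounding of the leaves changed no member in the roots past the threshold. None of the 33 passed limma's test, where 2.47% of all genes did, and voom and the authors' deposited table also called none. At an unadjusted p under 0.05 were AFB4, with 146, 162 and 189 normalized counts in wounded Col-0 against 253, 209 and 216 in DMSO and a log2 fold change of -0.45 (SE 0.16, adjusted p = 0.199, 95% interval -0.78 to -0.11), and IAA13, with 548, 467 and 539 against 649, 665 and 649.9 and -0.34 (SE 0.12, adjusted p = 0.19, 95% interval -0.59 to -0.09). Neither gene overlapped between the 2 groups. The members' median log2 fold change was -0.05, beside -0.01 over all genes.

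The other members changed in no comparison or were scarce. Of the tested Aux/IAA genes, 11 passed in none of the 15 comparisons: IAA1, IAA3, IAA4, IAA5, IAA9, IAA11, IAA12, IAA20, IAA29, IAA33 and IAA34. IAA9, the most abundant repressor, whose tomato homologue acts in leaf form and fruit set, ranged from -0.24 to 0.08 on the log2 scale over the 5 I3C comparisons, and IAA4 from -0.02 to 0.30. IAA3 (SHY2), which limits the root meristem, ranged from -0.63 to -0.29 and was below DMSO in all 5 group means without passing. IAA12 (BODENLOS) ranged from -0.68 to 0.13, and IAA11 from 0.20 to 0.58. Scarcer genes spread further, with IAA34 from -1.56 to 0.31, IAA5 from -0.96 to 0.19 and IAA29 from 0.19 to 0.98. IAA32 (AT2G01200), which lacks the core, was called once, at 8.20, 5.45 and 1.50 normalized counts in ICT1-2 at 400 µM against 21.4 and 7.77 in DMSO, with overlap and a log2 fold change of -1.41 (SE 0.53, adjusted p = 0.0472). That call ended under 6 alternatives and without ICT1-2 400 µM replicate 4 or 5 or ICT1-2 DMSO replicate 1 (highest adjusted p 0.461).

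The ARFs, which the repressors bind, were called lower at least as often as higher in each I3C comparison. Of 23 ARF genes 16 were tested. With I3C, none rose and 4 fell in Col-0 at 200 µM (25.0% lower, against 13.9% of all genes), and 1 rose and 8 fell at 400 µM (6.25% and 50.0%, against 18.4% and 17.4%). In ICT1-2, 2 rose and 2 fell at 200 µM (12.5% each, against 11.8% and 6.76%), and 1 rose and 4 fell at 400 µM (6.25% and 25.0%, against 17.6% and 13.7%). In ICT1-8098 none rose and 2 fell (12.5%, against 7.97%). Their median log2 fold changes in Col-0 were -0.44 and -0.51, beside -0.03 and -0.06 over all genes. ARF16 and ARF17, both targets of the microRNA miR160, fell in all 5, with log2 fold changes in Col-0 at 200 µM of -1.13 (SE 0.21, adjusted p = 0.000228) for ARF16 and -0.83 (SE 0.18, adjusted p = 0.00111) for ARF17. ARF3 fell in Col-0 at 400 µM, with a log2 fold change of -0.84 (SE 0.19, adjusted p = 0.00145), and ARF5 (MONOPTEROS), the partner of IAA12 and IAA13 in the embryo, was the 1 that rose there, with 0.67 (SE 0.18, adjusted p = 0.00486). With scaling to total reads the counts became 0 higher and 11 lower at both doses in Col-0, 0 and 2 and 0 and 9 in ICT1-2, and 0 and 4 in ICT1-8098, and ARF5 was no longer called. Under that scaling 32.0% and 34.1% of all genes were lower in Col-0, 16.9% and 40.3% in ICT1-2 and 15.9% in ICT1-8098. Between lines at 200 µM, 3 ARFs were higher and 1 lower in ICT1-2 than in Col-0 (18.8% and 6.25%, against 11.4% and 10.2% of all genes). In ICT1-8098, 6 were higher and 1 lower (37.5% and 6.25%, against 12.5% and 11.8%). ARF4 and ARF9 were higher in both, with log2 fold changes of 0.98 (SE 0.19, adjusted p = 0.000648) and 1.02 (SE 0.22, adjusted p = 0.00148) in ICT1-2. They were 1.17 (SE 0.19, adjusted p = 9.71e-05) and 1.41 (SE 0.22, adjusted p = 4.43e-05) in ICT1-8098. In DMSO too, every ARF4 and ARF9 library of both lines was above every Col-0 library, though no ARF passed the test as higher. ARF4 had 331 and 400 normalized counts in ICT1-2 and 340, 361 and 393 in ICT1-8098 in DMSO, against 246, 297 and 277 in Col-0.

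Genes of the SCF ligase, its regulators and the TOPLESS co-repressors were mostly not called. Of 14 tested, 2 rose and 1 fell in Col-0 at 200 µM (14.3% and 7.14%), no more than the 15% and 13.9% of all genes, and 4 rose and 1 fell at 400 µM (28.6% and 7.14%, against 18.4% and 17.4%). None fell in the other 3 comparisons: 4 rose in ICT1-2 at 200 µM (28.6%, against 11.8%), 6 at 400 µM (42.9%, against 17.6%) and 3 in ICT1-8098 (21.4%, against 14.2%). CUL1, the scaffold of the ligase, had log2 fold changes of 0.68 (SE 0.11, adjusted p = 3.26e-05) in Col-0 and 0.97 (SE 0.12, adjusted p = 1.38e-06) in ICT1-2 at 400 µM, and the adaptor ASK1 had 0.44 (SE 0.11, adjusted p = 0.0046) and 0.93 (SE 0.13, adjusted p = 5.51e-06). The co-repressor gene TPR4 rose, with a log2 fold change of 1.24 (SE 0.16, adjusted p = 3.13e-06) in ICT1-2 at 400 µM, and TPR2 fell in Col-0 at 400 µM, with -0.48 (SE 0.11, adjusted p = 0.000999). With scaling to total reads the counts of this list moved to 0 higher and 5 lower, 2 and 6, 1 and 3, 3 and 5, and 2 and 3 in the same order. Of all genes, 32.0%, 34.1%, 16.9%, 40.3% and 15.9% were then lower. The precursor genes MIR393A and MIR393B were listed at 0 in every library.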

How the data were processed

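Libraries came from root RNA and a TruSeq v2 kit, per the labels' protocols, a kit that does not mark the strand. The submitters' processing notes name the TAIR10 genome, HTSeq 0.6.1, TopHat2 2.1.0 and DESeq2 1.18.1, with no role given. The authors deposited normalized counts, per the file headers, each cell holding all libraries of a group. The authors' own log2 fold changes and adjusted p-values stand beside them and were used here as calls only. Multiplied back by a factor per library, 100% of the deposited values were whole within 0.1 reads, which gave the depths. Replicate 5 of ICT1-2 in DMSO has no column of its own and was not analysed here, so 26 of 27 libraries in 9 groups entered the tests.

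The test was limma 3.58.1 (R 4.3.3, eBayes with a variance trend) on log2(normalized count + 1), in 1 fit over the 9 groups and the 21180 genes that reached 10 normalized counts in 3 or more libraries. Contrasts of group means were two-sided, with Benjamini-Hochberg adjustment over all genes and calls at an adjusted p under 0.05. Fold changes on this scale understate the change of scarce genes. The values are normalized, so a count test planned for raw counts was replaced by this one, and voom on the recovered reads was added after seeing the data. The test was checked on simulated data. Other alternatives were no filter or 5 CPM in 3 libraries, pseudocounts of 0.5 and 5, TMM or total-read scaling, fits of the compared groups only, a block for the replicate number, each library left out, and the authors' calls.

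The members and gene lists were chosen with earlier results of these data known. Values in every library are printed for the receptors and for each Aux/IAA gene called in at least 1 of the 15 comparisons with a mean of at least 5 CPM in the higher group. Other genes come from lists of ARFs and of SCF and co-repressor genes, with at most 4 called members named per list and comparison by the smallest adjusted p. Sequences were read from RefSeq TAIR10.1 with pysam 0.24.0 and Biopython 1.88, and 99.969% of 32548 genes start at the same base in the table. Further tools were matplotlib 3.10.9, pandas 2.3.3 and numpy 2.4.6 in Python 3.11.15.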

Additional observations from a re-analysis of the deposited data

Results flagged for a closer look

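The response of IAA17 to 400 µM I3C differed between lines by an interaction test: its log2 fold change over DMSO was 0.11 in ICT1-2 and -1.15 in Col-0, a difference of 1.26 (limma, adjusted p = 0.02). The 3 ICT1-2 libraries at 400 µM were all above the 3 Col-0 libraries at that dose. The difference was no longer called with scaling to total reads, nor without ICT1-2 400 µM replicate 5, ICT1-2 DMSO replicate 1 or Col-0 DMSO replicate 4 (highest adjusted p 0.159), and ICT1-2 in DMSO has 2 libraries.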

How the results depend on the processing

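Counts of called members kept within 1.5 times of the reported count except as follows. Fitting the compared groups alone gave 4 calls for Col-0 at 200 µM over DMSO, 0 for ICT1-2 over Col-0 in DMSO, 1 at 200 µM for each of ICT1-2 and ICT1-8098 over Col-0, and 2 for ICT1-2 over Col-0 at 400 µM. Total-read scaling gave 0 for both ICT1 lines over Col-0 in DMSO, 2 for ICT1-2 and 5 for ICT1-8098 over Col-0 at 200 µM, and 0 for ICT1-2 in the interaction with 400 µM. ICT1-8098 over Col-0 in DMSO also gave 0 under a filter of 5 CPM, a pseudocount of 0.5, TMM scaling and the replicate block, and voom gave 2 for ICT1-2 over Col-0 at 400 µM. IAA8 in ICT1-2 at 400 µM turned to -0.068 under total reads. The replicate block gave 7 for ICT1-2 at 400 µM over DMSO and 3 for ICT1-2 over Col-0 at 400 µM. Over DMSO it ended the calls of IAA18 and IAA26 in Col-0 at 400 µM and of IAA2 and IAA30 in ICT1-8098. In ICT1-2 at 400 µM it ended those of IAA8, IAA26, IAA27, IAA30, IAA32, AFB5 and TIR1. For ICT1-2 over Col-0 it ended those of AFB5 in DMSO and of IAA19, AFB1 and AFB5 at 400 µM. Same-numbered libraries correlated at -0.10 to 0.30 in their deviations from group means, so the numbers were not taken to pair libraries. The causes were not tested.

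With each library left out in turn, counts ran from 10 to 13 and from 11 to 13 for Col-0 at 200 and 400 µM over DMSO, from 4 to 6 and 6 to 10 for ICT1-2, and from 5 to 9 for ICT1-8098. In DMSO they ran from 0 to 1 for ICT1-2 and 0 to 2 for ICT1-8098 over Col-0. At 200 µM they ran from 1 to 4 for ICT1-2 and 1 to 6 for ICT1-8098 over Col-0, at 400 µM from 1 to 4 for ICT1-2, and from 0 to 1 for the interactions of ICT1-8098 with 200 µM and of ICT1-2 with 400 µM. A lone remaining ICT1-2 DMSO library is assumed to vary like the other groups. The quasi-likelihood count test was not run, since the values are normalized. Few libraries limit what small changes can be called.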
